A study of Mus musculus with 8 samples.

Results

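The 7 cytotoxic effector genes described here are Gzma, Gzmb, Gzmc, Prf1, Nkg7, Fasl and Ifng, taken by name from a panel of 100 genes measured by single-molecule fluorescence in situ hybridization. All 7 were measured in each of 8 brain sections from mice carrying GL261, a mouse glioma cell line implanted in the brain. Mice had received 4 intracranial treatments with PBS, with anti-PD1 (an antibody to an inhibitory receptor of T cells), with CpG-STAT3ASO (by its name a CpG oligonucleotide joined to an antisense oligonucleotide to STAT3), or with CpG-STAT3ASO and anti-PD1 together (the combination), and were killed on day 21. Each treatment has 2 sections, so 4 sections had no CpG-STAT3ASO and 4 had it, and all 8 carry the tumour line. The labels used here do not give the strain or age of the mice, and they do not say whether the sections of a treatment come from separate animals. The p-values below therefore measure the spread between sections, which may be technical.

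Cytotoxic lymphocytes, chiefly CD8 T cells and natural killer (NK) cells, kill by releasing granules at the contact with a target cell. Perforin, encoded by Prf1, opens the membrane of the target, and granzymes, serine proteases encoded by Gzma, Gzmb and Gzmc, then cut proteins inside it. NKG7 is a membrane protein of these granules, FAS ligand (Fasl) triggers death through the receptor FAS, and interferon gamma (Ifng) is the cytokine the same cells secrete to act on tumour and myeloid cells.

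Of the 7 genes, 3 are drawn on below for how their transcripts lay in the tissue: by mean density of one gene around the other, Gzma with Gzmb was the highest pair and Gzmb with Ifng the lowest, the latter by a small margin. The stretches of 250 bases before their transcription starts (RefSeq, GRCm38.p6) are shown 5′ to 3′ on the strand of the gene, with matches to the RUNX motif TGTGGT on either strand and to the TATA box TATAAA in capitals.
Gzma, chr13:113100982-113101231, minus strand: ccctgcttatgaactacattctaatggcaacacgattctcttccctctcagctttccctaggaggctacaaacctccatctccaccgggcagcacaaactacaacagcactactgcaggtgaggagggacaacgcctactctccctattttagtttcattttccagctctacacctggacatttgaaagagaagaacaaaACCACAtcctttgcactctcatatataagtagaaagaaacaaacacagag
Gzmb, chr14:56262335-56262584, minus strand: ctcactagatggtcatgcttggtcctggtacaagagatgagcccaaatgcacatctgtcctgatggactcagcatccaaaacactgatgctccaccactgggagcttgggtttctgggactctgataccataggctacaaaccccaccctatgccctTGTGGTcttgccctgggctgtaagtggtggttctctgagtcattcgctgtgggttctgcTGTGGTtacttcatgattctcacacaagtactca
Ifng, chr10:118440796-118441045, plus strand: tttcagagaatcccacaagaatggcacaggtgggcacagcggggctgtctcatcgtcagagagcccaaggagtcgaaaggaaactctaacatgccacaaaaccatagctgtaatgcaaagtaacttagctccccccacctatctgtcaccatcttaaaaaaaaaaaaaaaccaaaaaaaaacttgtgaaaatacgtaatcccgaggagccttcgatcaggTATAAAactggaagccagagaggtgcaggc
Gzma had 1 RUNX match, Gzmb had 2 and Ifng had none, while the TATA box letters stood 30 bases before the start of Ifng. Over the windows of 250 bases before to 50 after the start, TGTGGT on either strand was present in 5 of the 7 genes (Gzma, Gzmb, Gzmc, Prf1 and Nkg7) and in 16.8% of 32817 mouse promoter windows. For Gzmc and Prf1 the window lies around a transcript start that is not the outer edge of the annotated gene. The TATA box letters were in 1 of the 7 windows, against 13.6% of all windows. Only the exact letters TATAAA were searched, so a window without them may hold a close variant. Of 6 other motifs searched on both strands, the STAT motif TTCNNNGAA was in Gzmb, Nkg7 and Ifng (8.29% of all windows), TGACGT in Gzmb, Gzmc and Prf1 (7.51%), GGAAAA in Gzma and Fasl (23.3%), TGANTCA in Gzmb (7.81%), GGTGTGA in Nkg7 (3.98%) and CCGGAAG in none (8.86%). The 2 TGACGT matches of Gzmc overlap each other. These are matches of letters in a window and not measured sites, and the motifs were chosen after the values below were known.

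The sections held 1669939 to 6995401 called molecules, fewest in CpG-STAT3ASO section 1 and most in PBS section 2. All 4 sections with CpG-STAT3ASO (at most 3927955) were shallower than all 4 without it (at least 4195896). The panel includes 28 codes whose names start with FP, read here as false-positive codes, which made up 0.106 to 0.306% of molecules. A gene was taken as above background in a section when its molecules exceeded the 90th percentile of these codes, which was 82.6 to 519.3 molecules. By this measure 6 of the 7 genes were above background in all 8 sections. The mean FP code was above this percentile in both CpG-STAT3ASO sections and combination section 1. Against that mean Ifng stood at 0.527 and 0.690 times in CpG-STAT3ASO section 1 and combination section 1, and Prf1 at 0.708 times in CpG-STAT3ASO section 1. Gzmc was above the 90th percentile in 3 sections only, PBS section 2, anti-PD1 section 2 and combination section 2. The T cell marker Cd3d was above it in 5 sections, the NK cell marker Klrb1c in 4 and the microglial marker Tmem119 in 8. Together the 7 genes gave 2136 to 17974 molecules a section, or 1266 to 4582 for every 1000000 molecules. Probe efficiency differs between genes, so levels are compared between sections and not between genes. In bulk measures of a section, fewer cells of a type and less RNA per cell cannot be told apart.

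Levels are given first as counts for every 1000000 molecules of the section (CPM). Among the granzymes, Gzma, which encodes a trypsin-like granzyme, measured 258 and 171 CPM in the PBS sections, 336 and 140 with anti-PD1, 199 and 355 with CpG-STAT3ASO and 195 and 182 in the combination. The treatments overlapped, and the highest and the lowest section belonged to CpG-STAT3ASO and to anti-PD1. Gzmb, the caspase-cleaving granzyme, measured 396 and 449 CPM with PBS, 464 and 120 with anti-PD1, 154 and 249 with CpG-STAT3ASO and 138 and 367 in the combination. Both PBS sections lay above the 4 sections with CpG-STAT3ASO, but anti-PD1 section 2 was the lowest of all. Gzmc, which neighbours Gzmb in the granzyme cluster of chromosome 14, measured 57.0 and 334 CPM with PBS, 56.1 and 57.9 with anti-PD1, 17.4 and 50.3 with CpG-STAT3ASO and 16.8 and 71.6 in the combination. PBS section 2 stood far above the other 7 sections.

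Prf1 measured 238 and 158 CPM with PBS, 99.3 and 126 with anti-PD1, 77.5 and 168 with CpG-STAT3ASO and 170 and 278 in the combination. Both anti-PD1 sections were below both PBS sections. Both combination sections were above both CpG-STAT3ASO sections, narrowly so for combination section 1 (170 against 168). Nkg7 measured 641 and 781 CPM with PBS, 860 and 522 with anti-PD1, 479 and 931 with CpG-STAT3ASO and 552 and 2431 in the combination. Of the 8 sections 7 lay between 479 and 931, and combination section 2 stood apart.

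Fasl measured 248 and 254 CPM with PBS, 362 and 202 with anti-PD1, 299 and 417 with CpG-STAT3ASO and 457 and 851 in the combination. All 4 sections with CpG-STAT3ASO were above both PBS sections, and anti-PD1 section 1 overlapped them. Ifng measured 92.6 and 250.4 CPM with PBS, 259 and 98.7 with anti-PD1, 57.7 and 115 with CpG-STAT3ASO and 71.5 and 402 in the combination. Combination section 2 was the highest section for Ifng as well, and the other 3 sections with CpG-STAT3ASO were at or below 115. Cd8a, the CD8 T cell co-receptor, measured 511 and 222 CPM with PBS, 607 and 512 with anti-PD1, 690 and 1093 with CpG-STAT3ASO and 1056 and 4674 in the combination, with no overlap between the sections with and without CpG-STAT3ASO.

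**Figure D1:**
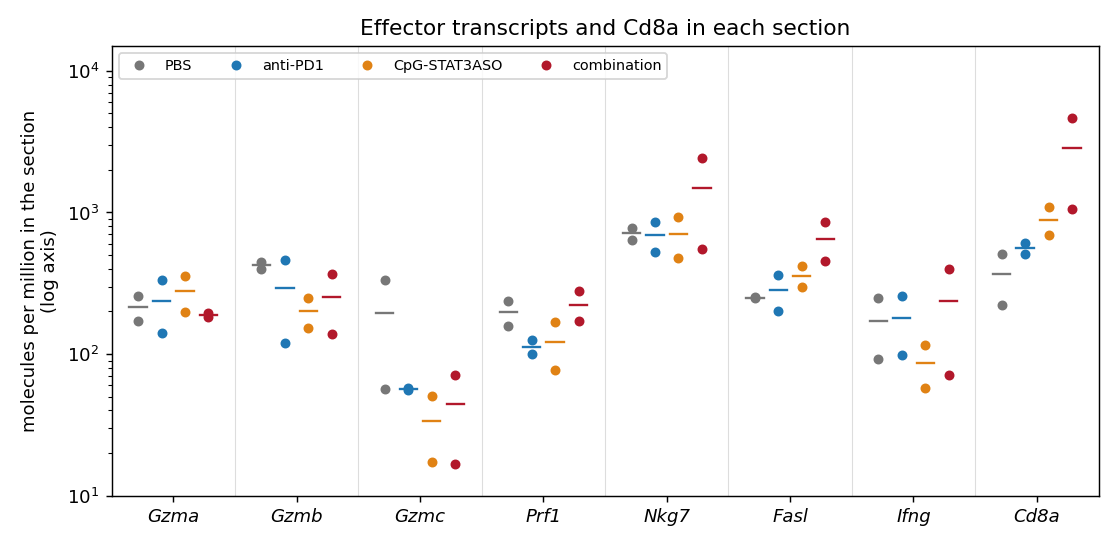
CPM in each section (log axis) for the 7 effector genes and Cd8a, with each point a section, the colour its treatment and the bar the arithmetic mean of 2 sections. Treatments overlap for most effector genes, Gzmc is highest in 1 PBS section (334), and Nkg7, Fasl, Ifng and Cd8a are highest in 1 combination section (2431, 851, 402 and 4674).

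Whether the agents changed these levels was asked in one fit of all 100 genes (limma with Benjamini-Hochberg adjustment, threshold 0.05). For the effect of CpG-STAT3ASO averaged over anti-PD1, 0 of the 7 genes passed, where 43% of the 100 genes did. The median gene was 0.63 higher on the log2(CPM + 1) scale with CpG-STAT3ASO, and the median of the 7 was 0.07. Fasl had the highest of the 7 values, at 0.85 (SE 0.49, adjusted p = 0.189), followed by Nkg7 at 0.35, Prf1 at 0.10 and Gzma at 0.07. Ifng was at -0.40, Gzmb at -0.59 and Gzmc at -1.44 (SE 0.66, adjusted p = 0.0914). Without PBS section 1 and without combination section 2, Gzmc alone passed (-2.07 and -1.94, adjusted p = 0.0099 and 0.0128), and without PBS section 2 it was at -0.80. At an unadjusted p under 0.05, 1 of the 7 genes (Gzmc) passed against 49 of all 100, and limma's voom called 0 of the 7 and 43 of the 100.

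The total of a section enters these values. The proliferation gene Mki67 averaged 55245 CPM without and 10090 CPM with CpG-STAT3ASO, and Birc5 averaged 16834 and 2028 CPM, with no overlap for either. A gene of constant number takes a larger share of a smaller total. FP codes made up 0.1516 and 0.1125% of molecules with PBS and 0.1062 and 0.1223% with anti-PD1. Their share was 0.3055 and 0.2172% with CpG-STAT3ASO and 0.289 and 0.1264% in the combination. Only combination section 2 lay within the range of the sections without CpG-STAT3ASO. The part of this background in the CPM values, that of Fasl among them, was not tested. On molecules per tissue bin the median gene was at -0.77 and on median-of-ratios scaling at -0.04. The split of calls moved with it, from 35 higher of 43 on CPM to 2 of 33 per bin and 18 of 34 on median-of-ratios scaling. Gzma, Prf1 and Nkg7 changed sign on both scalings, to -1.30, -1.24 and -1.04 per bin and to -0.61, -0.58 and -0.33 on median-of-ratios scaling. Fasl was at -0.55 per bin and at 0.17 on median-of-ratios scaling. Gzmc was negative on all 3 scalings and passed on median-of-ratios scaling (-2.10, adjusted p = 0.0205). Whether the shift in proliferating tissue accounts for the values of the 7 genes was not tested.

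In the other whole-section contrasts 0 of the 7 genes passed either. The share of all genes passing was 0% for anti-PD1 averaged over CpG-STAT3ASO, 0% for the interaction of the agents, 1% for anti-PD1 against PBS, 25% for CpG-STAT3ASO against PBS, 18% for the combination against PBS, 0% for the combination against CpG-STAT3ASO and 28% for the combination against anti-PD1. These contrasts share sections, PBS above all. At an unadjusted p under 0.05 in limma, CpG-STAT3ASO against PBS gave 1 of the 7 and each of the other 6 contrasts gave 0, and voom called 0 of the 7 in all of them after adjustment. Of all 100 genes, 33 had such a p for CpG-STAT3ASO against PBS, 32 for the combination against PBS, 37 for the combination against anti-PD1 and 1 to 3 in the other 4 contrasts. For the interaction Prf1 was at 1.71 (SE 1.06, adjusted p = 0.955). Gzmc passed for CpG-STAT3ASO against PBS without PBS section 1 and, through the shared estimate of the spread, without either combination section, and for the combination against PBS without PBS section 1 and without combination section 2.

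The effector transcripts were also set against the number of Cd8a molecules, in a comparison added after the levels were seen. Gzmb gave 776 and 2018 molecules per 1000 Cd8a molecules with PBS, 765 and 234 with anti-PD1, 223 and 228 with CpG-STAT3ASO and 131 and 78.4 in the combination. Every section with CpG-STAT3ASO lay below every section without it, by a narrow gap at anti-PD1 section 2. Ifng gave 181 to 1126 per 1000 without and 67.7 to 105 with CpG-STAT3ASO. Of the 7 genes, 5 (Gzmb, Gzmc, Prf1, Nkg7 and Ifng) did not overlap between the sections with and without CpG-STAT3ASO, and Gzma and Fasl did. Of the 99 panel genes other than Cd8a, 27.3% did not overlap.

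By the fit, 2 of the 7 genes passed, both lower with CpG-STAT3ASO, against 21.2% of all genes, and the median gene was at -1.06. Gzmb was at -2.26 on the log2 scale (SE 0.85, limma adjusted p = 0.0416) and Gzmc at -3.09 (SE 0.77, adjusted p = 0.0011). Ifng was at -2.08 (adjusted p = 0.0526), Gzma at -1.60, Prf1 at -1.57, Nkg7 at -1.32 and Fasl at -0.83. Gzmc was above background in 1 of the 4 sections with CpG-STAT3ASO. Of the 7 genes, 1 was above the median gene. The count depended on single sections: it was 0 without PBS section 2 and without CpG-STAT3ASO section 1, 1 without either anti-PD1 section and without CpG-STAT3ASO section 2, 3 without PBS section 1 and without combination section 2, and 6 without combination section 1. The count over all 99 genes moved with it, from 21 to 5 without PBS section 2, 4 without CpG-STAT3ASO section 1, 5 and 8 without anti-PD1 sections 1 and 2, 6 without CpG-STAT3ASO section 2, 21 without PBS section 1, 32 without combination section 2 and 63 without combination section 1. Cd8a itself averaged 463 ± 167 CPM without and 1878 ± 1873 CPM with CpG-STAT3ASO (SD, n = 4; 1.68, SE 0.51, adjusted p = 0.0137). Of the 4 NK cell genes on the panel, Tbx21 was higher with CpG-STAT3ASO (1.11, adjusted p = 0.038), Klrd1 was at 1.11 (adjusted p = 0.118) and Klrc1 at 0.72 (adjusted p = 0.32). In the bins of low proliferation described below, Tbx21 averaged under 10 molecules a section and was not fitted. The mean FP code had 90.9 to 145 molecules a section in those bins. Klrb1c was at -1.23 (adjusted p = 0.0858) and was above background in the 4 sections without CpG-STAT3ASO and in 0 of the 4 with it. The part of a different mix of lymphocytes in these ratios was not tested.

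The make-up of the effector molecules was set side by side across treatments too. Granzymes made up 36.8 and 39.8% of the molecules of the 7 genes with PBS, 35.1 and 25.1% with anti-PD1, 28.8 and 28.6% with CpG-STAT3ASO and 21.9 and 13.5% in the combination. Both PBS sections had the highest shares and both combination sections the lowest, and anti-PD1 section 2 lay below the CpG-STAT3ASO sections. In PBS section 2 Gzmc alone was 13.9% of these molecules, against 1.05 to 4.57% in the other sections. Gzma and Gzmb were 7.155 and 18.7% there, against 13.4 and 20.5% in PBS section 1. The high granzyme share of PBS section 2 thus leaned on Gzmc. Gzmb per Nkg7 molecule was 0.618 and 0.575 with PBS, 0.540 and 0.229 with anti-PD1, 0.321 and 0.268 with CpG-STAT3ASO and 0.250 and 0.151 in the combination. Both PBS sections were highest, and anti-PD1 section 2 lay below combination section 1. Fasl per Nkg7 molecule was 0.387 and 0.325 with PBS, 0.420 and 0.387 with anti-PD1, 0.625 and 0.448 with CpG-STAT3ASO and 0.827 and 0.350 in the combination, and the treatments overlapped. These ratios are given as descriptions without a test.

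Where the transcripts lay was read from square bins of 360 pixels (the pixel size is not given in the sources used here). Bins with at least 20 molecules counted as tissue and were classed by their Mki67 and Birc5 molecules, which mark dividing cells: low (under 10), intermediate (10 to 99) and dense (100 or more). Sections without CpG-STAT3ASO had 714 to 1090 dense bins, and sections with it 22 to 78. In the 4 sections without it, dense bins held 70.9 to 97.2% of Gzma, 77.5 to 92.6% of Gzmb, 72.0 to 97.3% of Gzmc, 75.1 to 88.0% of Prf1, 78.3 to 94.9% of Nkg7, 59.5 to 82.7% of Fasl and 86.6 to 96.0% of Ifng. The dense class was 32.2 to 46.2% of tissue bins in these sections, and it held 44.7 to 62.8% of FP molecules.

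Per 100 bins, Ifng went from 1.54, 5.67, 1.104 and 0.642 molecules in low bins to 47.1, 157, 196 and 55.3 in dense bins of PBS sections 1 and 2 and anti-PD1 sections 1 and 2. The lowest dense value of Ifng was far above the highest low value. Nkg7 went from 14.0, 55.3, 14.5 and 7.16 to 295, 464, 591 and 289 in the same order, and Gzmb from 10.4, 22.7, 8.57 and 3.39 to 180, 263, 335 and 64.7. In low bins Ifng and Gzmc (2.24 ± 2.32 and 2.27 ± 1.43, SD, n = 4) were below the mean FP code (9.26 ± 1.05), while Gzma (7.98 ± 4.58), Prf1 (8.25 ± 3.71) and Gzmb (11.3 ± 8.17) were close to it. The folds between classes of these 5 genes are therefore set against values at or near the background.

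All 7 genes were higher per bin in dense than in low bins of the sections without CpG-STAT3ASO, where 93.9% of 98 panel genes other than Mki67 and Birc5 differed. The median gene was higher by 2.96 on the log2 scale. Ifng was higher by 5.11 (SE 0.44, adjusted p = 1.37e-05), Nkg7 by 4.44, Gzmb by 4.12, Gzmc by 4.07, Gzma by 3.99, Prf1 by 3.20 and Fasl by 2.48. As a share of the molecules of each class, 4 of the 7 were higher, where 55.1% of genes differed in either direction. These were Ifng at 2.98 (SE 0.48, adjusted p = 0.00279), Gzmc at 1.84, Nkg7 at 1.67 and Gzmb at 1.43. Gzma was at 1.41 (adjusted p = 0.0518), Prf1 at 0.51 (adjusted p = 0.2) and Fasl at -0.32 (adjusted p = 0.419). Fasl thus changed sign between the 2 scales. Cd8a was at 0.16 on the share scale (adjusted p = 0.831).

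**Figure D2:**
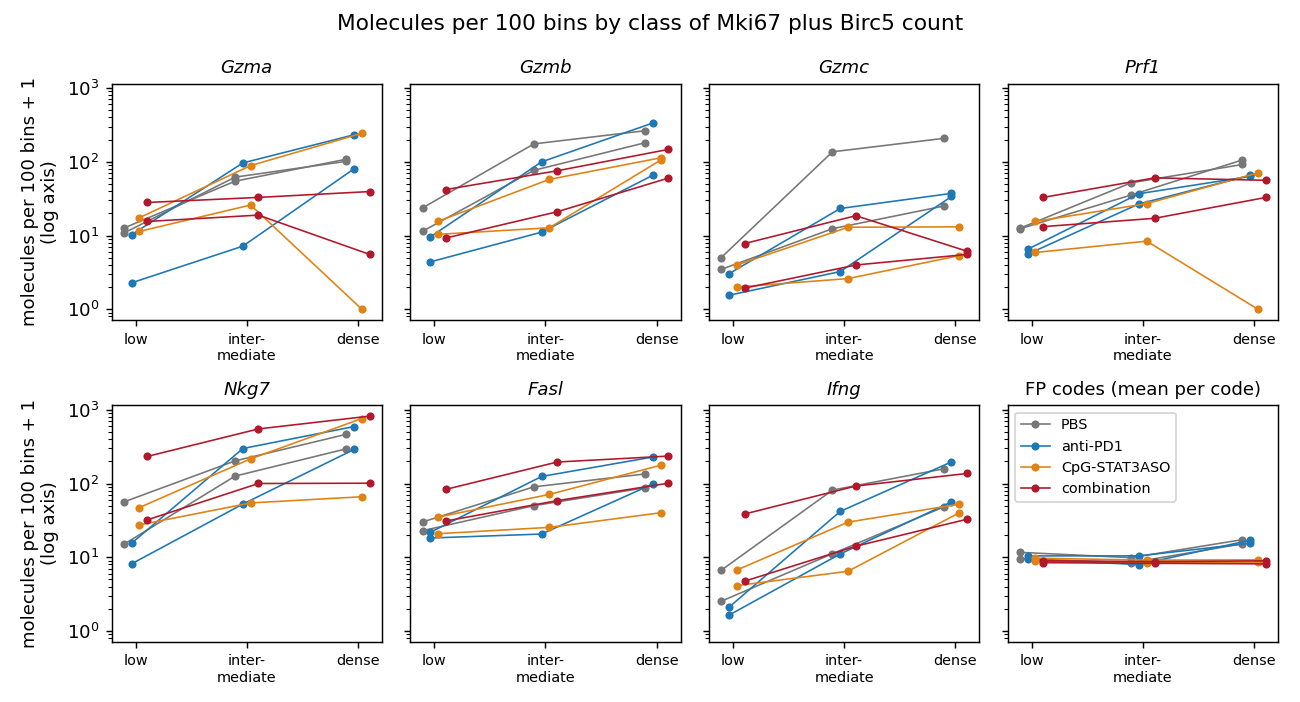
Molecules per 100 bins plus 1 (log axis) in low, intermediate and dense bins, with a line for each section coloured by treatment and a panel for each effector gene and for the mean FP code. Effector genes climb from low to dense bins in the sections without CpG-STAT3ASO, Ifng from 0.642 to 5.67 up to 47.1 to 196, while the mean FP code stays between 6.98 and 16.3; sections with CpG-STAT3ASO have only 22 to 78 dense bins.

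The class between, with 10 to 99 proliferation molecules, allowed all 8 sections to be used. All 7 genes were higher per bin there than in low bins, where 89.8% of genes differed and the median gene was at 1.19. Ifng was higher by 2.31 (SE 0.37, adjusted p = 0.000129), Nkg7 by 2.24, Gzmc by 1.87, Gzmb by 1.82, Gzma by 1.70, Prf1 by 1.36 and Fasl by 1.11. All 7 were also higher as a share of molecules, where 66.3% of genes differed, from 2.08 for Ifng to 0.51 for Fasl (adjusted p = 0.0496), with the median gene at 0.62. Ifng had the highest and Fasl the lowest value of the 7 in both comparisons and on both scales.

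Whether CpG-STAT3ASO changed the effector transcripts within tissue of one class was asked in low and in intermediate bins. In low bins 0 of the 7 genes passed, where 9.38% of 96 genes did. Ifng was at 1.81 (SE 0.62, adjusted p = 0.0901), Nkg7 at 1.39 (adjusted p = 0.146) and Gzma at 1.09 (adjusted p = 0.266). Prf1 was at 0.46, Fasl at 0.41, Gzmb at 0.38 and Gzmc at -0.12, and the median gene was at 0.41. Per 100 low bins Ifng was below the mean FP code in every section but combination section 2 (0.642 to 5.71 against 7.90 to 10.7). Gzmc was below that mean in every section, at 6.79 or less. The values of these genes in low bins thus compare counts under the background for the most part. Ifng passed without PBS section 2 (2.20, adjusted p = 0.0403), Ifng and Nkg7 without combination section 1 (2.42 and 1.90, adjusted p = 0.0235 and 0.0399) and Gzma without anti-PD1 section 1 (1.74, adjusted p = 0.0455). At an unadjusted p under 0.05, 2 of the 7 passed against 25 of all 96, and voom called 0 of the 7 and 9 of the 96 after adjustment.

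Combination section 2 stood apart in low bins. Nkg7 measured 26.5 and 46.3 molecules per 100 low bins with CpG-STAT3ASO and 31.1 and 231.9 in the combination. Ifng measured 3.13 and 5.71 with CpG-STAT3ASO and 3.74 and 37.6 in the combination. Combination section 2 was far above the other 3 sections with CpG-STAT3ASO for both genes, and Cd8a was at 437 there against 45.2 to 60.3 in the other 3. Without that section the values were 1.19 for Ifng and 0.88 for Nkg7.

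In intermediate bins 0 of the 7 genes passed, where 4.3% of 93 genes did. Gzmc was at -1.71, Gzmb at -1.10, Prf1 at -0.95, Ifng at -0.37, Gzma at -0.32, Nkg7 at 0.00 and Fasl at 0.05, all with adjusted p of 0.261 or more, and the median gene was at 0.30. None of the 7 was above the median gene. At an unadjusted p under 0.05 the count was 0 of the 7 against 22 of all 93, and voom called 0 of the 7 and 4 of the 93. Gzmc measured 135 molecules per 100 intermediate bins in PBS section 2 and 2.25 to 22.3 in the other sections without CpG-STAT3ASO.

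Effector molecules were gathered in few bins. In the median section 50% of Gzmc molecules lay in 0.511% of tissue bins, 50% of Gzma in 0.889%, of Ifng in 1.25%, of Gzmb in 1.70%, of Prf1 in 4.06%, of Nkg7 in 4.28% and of Fasl in 6.40%. Cd8a needed 3.10%, and the FP codes, pooled to 4827 to 7861 molecules a section, needed 19.7%. A gene with few molecules occupies few bins for that reason alone, so the order depends on abundance too. Single bins stood out: 1 dense bin of PBS section 2 held 191 of 2332 Gzmc molecules, 1 intermediate bin of CpG-STAT3ASO section 2 held 30.3% of its Gzmc, and 1 dense bin of anti-PD1 section 1 held 179 Ifng molecules, or 10.4%. Bins with at least 5 of the 7 genes made up 4.96 and 9.19% of tissue bins with PBS, 12.0 and 4.58% with anti-PD1, 0.769 and 2.63% with CpG-STAT3ASO and 0.782 and 7.11% in the combination.

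How close the transcripts lay to CD8 T cells was measured as the density of a gene within 100 pixels of Cd8a molecules over its density in a ring of 400 to 600 pixels. For Gzma the log2 ratio was 3.36 and 2.76 with PBS, 2.26 and 3.72 with anti-PD1, 5.45 and 3.55 with CpG-STAT3ASO and 5.37 and 2.26 in the combination. Gzma thus lay 4.80 to 43.8 times as densely beside Cd8a as in the ring. For Gzmb the ratio was 3.35 and 3.40, 2.58 and 2.70, 4.87 and 3.42, and 4.08 and 2.73 in the same order. Both granzymes were above the ratio of all genes pooled (0.19 to 0.70) in 8 of 8 sections. For Gzmc it was 1.56 and 1.32, 1.72 and 2.21, 2.17 and 2.65, and 2.85 and -0.83. Gzmc was thus sparser beside Cd8a than in the ring in combination section 2, where 281 Gzmc molecules were called and 5000 of 18335 Cd8a molecules were used as anchors.

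The other 4 genes were denser near Cd8a in every section. Nkg7 ranged from 2.37 to 4.92 with a mean of 3.52 ± 0.78 (SD, n = 8), Fasl from 1.90 to 4.27 (2.95 ± 0.69), Ifng from 0.87 to 4.79 (2.76 ± 1.19) and Prf1 from 1.36 to 3.96 (2.70 ± 0.93). Ifng was lowest in anti-PD1 section 1, the section whose densest bin held 10.4% of its Ifng. FP codes averaged 0.23 ± 0.19 and the median gene was at 0.54.

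All 7 genes passed the test of the ratio against 0, where 88.9% of 99 genes did, and all 7 passed on the share of molecules, where 39.4% did. On the share scale Gzma was at 3.16 (SE 0.40, adjusted p = 0.00189), Nkg7 at 3.09, Gzmb at 2.96, Fasl at 2.52, Ifng at 2.33, Prf1 at 2.27 and Gzmc at 1.27 (adjusted p = 0.0371), and the median gene was at 0.11. By mean ratio, Gzma, Nkg7, Gzmb, Fasl, Ifng and Prf1 ranked 1, 2, 4, 7, 9 and 10 of the 99 genes, and Gzmc ranked 16. The ranks between were taken by the NK and T cell receptor genes Klrc1 (3) and Klrd1 (5), the T cell receptor component Cd3d (6) and Pdcd1 (8), which encodes PD1. Within 200 pixels Gzmc no longer passed (0.51, adjusted p = 0.177).

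The gathering was short in range. Within 50 pixels of Cd8a, Gzma was 35.9-fold, Nkg7 34.6-fold, Gzmb 30.9-fold, Fasl 22.9-fold, Prf1 18.98-fold, Ifng 17.9-fold and Gzmc 8.44-fold as dense as in the ring. At 50 to 100 pixels the range was 1.36-fold (Gzmc) to 3.73-fold (Nkg7), and at 100 to 200 pixels 0.713-fold (Gzmc) to 1.34-fold (Nkg7). FP codes were at 1.27-fold within 50 pixels. Cells were not outlined in these data, so molecules of one cell and of touching cells are counted alike.

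**Figure D3:**
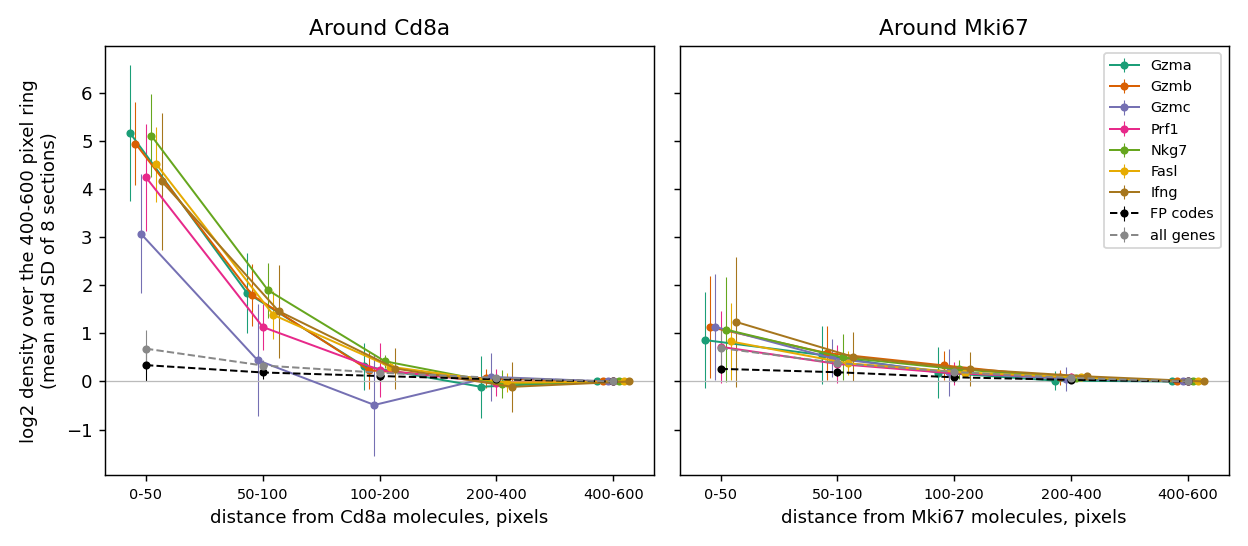
Mean log2 density over the 400 to 600 pixel ring (bars, SD of 8 sections) at growing distance from Cd8a molecules, left, and Mki67 molecules, right, for the 7 effector genes, the FP codes and all genes together. Around Cd8a the effector genes stand between 3.08 (Gzmc) and 5.17 (Gzma) within 50 pixels and fall to 0.42 or less at 100 to 200 pixels; around Mki67 they stay at 1.24 or less.

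Other lymphocyte genes on the panel were set beside these values on the share scale, from lists of lymphocyte, myeloid and pathway genes. Of the T cell list Cd3d could be tested and passed (2.70), and of 5 CD4 and regulatory T cell genes 2 passed (Il2ra, the high-affinity interleukin receptor chain, at 1.63 and Ctla4 at 1.40). Of 6 activation genes, 6 passed as denser near Cd8a (median 0.95), among them the co-stimulatory receptor Cd28 at 1.84 and the chemokine Ccl5 at 0.83. Of 5 inhibitory receptors 4 passed (median 0.84), with Pdcd1 at 2.48, and of 3 NK receptor genes 2 passed, with Klrc1 at 3.07, Klrd1 at 2.77 and Klrb1c at -0.14 (adjusted p = 0.6). Klrd1 and Klrc1 are also carried by activated CD8 T cells, whereas Klrb1c marks NK cells. Of 5 dendritic cell genes 0 passed, and of 6 macrophage and microglia genes 0 were denser and Tmem119 passed as sparser (-0.20). Of 7 targets of interferon gamma 1 passed near Cd8a (Nos2, 0.33), whereas 5 passed as higher in dense than in low bins by share, Cxcl10 at 3.36, Cxcl9 at 2.38, Cd74 at 2.32, Irf8 at 1.36 and Cd274 at 1.14. Of 7 inducers of type 1 responses 0 passed near Cd8a.

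The same lists give the surroundings of the effector genes under CpG-STAT3ASO, on whole-section CPM, where the median gene was at 0.63. Of 7 inducers of type 1 responses 4 were higher and 0 lower, among them the interleukin-12 subunits Il12b (2.75, SE 0.60, adjusted p = 0.00189) and Il12a (1.93). In low bins 0 of the 5 that could be fitted passed, with Il12b at 2.30 (adjusted p = 0.0723) and Il12a at -0.08. Tbx21, also among the 4, had too few molecules there to be fitted. By share 3 of the 7 were lower in dense than in low bins, Il12a at -4.17 among them, and 0 were higher. Of 5 inhibitory receptors 3 were higher, Tox, a transcription factor counted with them, at 2.17, Lag3 at 1.60 and Havcr2 at 1.57. In low bins 0 of these 5 passed, with Tox at -0.16, Lag3 at -0.28 and Havcr2 at 0.65, and Tox and Lag3 were lower in dense than in low bins by share (-5.38 and -3.05). Of 6 activation genes 2 were higher, Ccl5 at 3.35 and Tnf at 1.70, and Tnfrsf9, a co-stimulatory receptor, was lower at -1.34, while in low bins Ccl5 alone passed (3.37, adjusted p = 0.00464). Of 7 targets of interferon gamma 0 were higher and 1 was lower, the chemokine Cxcl10 at -2.59, and in low bins 0 passed. Of 6 macrophage and microglia genes 3 were higher (Adgre1 3.47, Cd68 2.61 and Csf1r 2.05), and in low bins Adgre1 alone passed (1.97). Of 5 dendritic cell genes 1 was higher (Flt3) and 1 lower (Itgax), and of 5 CD4 and regulatory T cell genes 2 were higher (Cd4 and Ikzf2), and in low bins 0 of either list passed. By share Flt3, Cd4 and Ikzf2 were lower in dense than in low bins (-4.42, -5.79 and -1.40), and Itgax was higher (2.12). The 7 effector genes, with 0 passing in either direction and a median of 0.07, were measured in the same fit.

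No change of the ratio near Cd8a with CpG-STAT3ASO was detected by limma: 0 of the 7 genes passed, and 0% of the 99 genes did. With CpG-STAT3ASO the mean ratio was 4.16 ± 1.54 (SD, n = 4) for Gzma against 3.03 ± 0.64 without, and 3.40 ± 0.94 against 2.12 ± 1.15 for Ifng. The 2 sides overlapped for all 7 genes, and 16.2% of the 99 genes did not overlap. At an unadjusted p under 0.05 the count was also 0 of the 7, against 18 of the 99 genes. The standard errors of these differences were 0.51 to 0.86 on the log2 scale.

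Around Mki67 molecules the ratios were smaller, and they differed between the sections with and without CpG-STAT3ASO. Ifng was at 0.33 and -0.16 with PBS, 0.09 and 0.07 with anti-PD1, 1.92 and 1.51 with CpG-STAT3ASO and 0.96 and 1.61 in the combination. Fasl was at 0.37 and 0.11, 0.11 and 0.02, 0.99 and 0.79, and 0.86 and 0.98 in the same order. Gzmb was at 0.32 and 0.26, 0.24 and -0.11, 1.79 and 1.26, and 0.93 and 1.55. For all 7 genes every section with CpG-STAT3ASO lay above every section without it, narrowly so for Prf1 (at most 0.45 without, at least 0.47 with), and 57.6% of the 99 genes likewise did not overlap. The pooled ratio of all genes and Cd8a did not overlap either.

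Averaged over all sections, all 7 genes passed as denser near Mki67 than in the ring, where 90.9% of 99 genes passed in either direction. Log2 values of the 7 ran from 0.47 (Prf1) to 0.79 (Ifng), with a median gene of 0.47. In the sections without CpG-STAT3ASO their means were 0.08 (Ifng) to 0.23 (Gzma), below all genes pooled (0.32). On the share of molecules 0 of the 7 passed, where 23.2% did, and 2 of the 7 had an unadjusted p under 0.05, against 41 of all 99. The difference with CpG-STAT3ASO was tested after these values were seen. It passed for all 7 genes, against 67.7% of genes, and the median gene was at 0.59. Gzma no longer passed without PBS section 1, without PBS section 2 or without anti-PD1 section 2 (adjusted p = 0.0507, 0.0698 and 0.063), nor against a ring of 200 to 400 pixels (adjusted p = 0.095). Ifng rose by 1.42 (SE 0.23, adjusted p = 0.00342), Gzmb by 1.21, Nkg7 by 1.096, Gzmc by 1.01, Gzma by 0.83, Prf1 by 0.79 and Fasl by 0.75. On the share of molecules 3 of the 7 passed, where 36.4% did: Ifng at 1.11 (SE 0.22, adjusted p = 0.0116), Gzmb at 0.90 and Fasl at 0.45. Within 200 pixels 4 of the 7 passed, against 27 of all 99. The ratio of all genes pooled rose too, from 0.32 ± 0.09 to 0.63 ± 0.17 (SD, n = 4), while FP codes were at 0.23 ± 0.07 and 0.19 ± 0.09. Mki67 molecules numbered 206870 to 511558 a section without CpG-STAT3ASO and 12784 to 43111 with it, and the part of this in the difference was not tested.

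**Figure D4:**
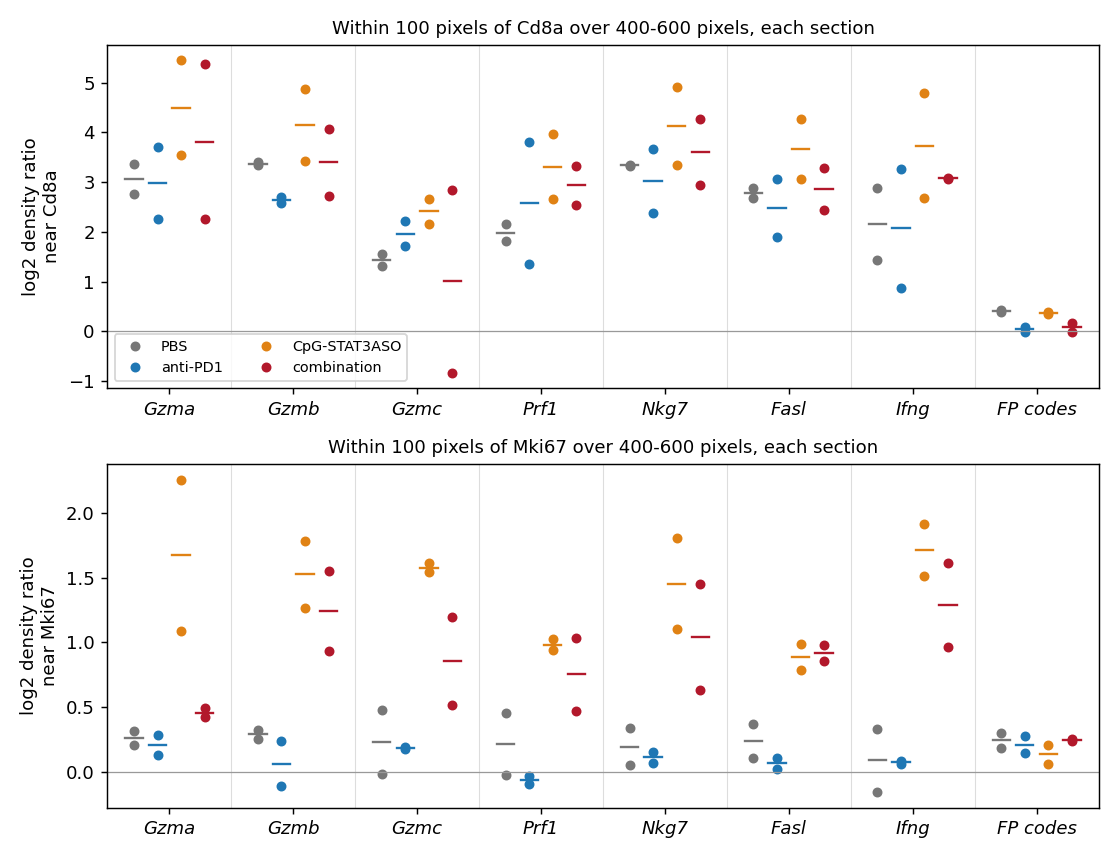
Log2 density ratio within 100 pixels of Cd8a (top) and Mki67 (bottom) over the ring, each point a section, the colour its treatment and the bar the mean of 2 sections. Near Cd8a the effector genes are above 0 in every section except Gzmc in 1 combination section (-0.83); near Mki67 every section with CpG-STAT3ASO is above every section without it for each effector gene, while the FP codes stay between 0.06 and 0.30.

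The effector transcripts differed in how close they lay to one another. Gzma and Gzmb molecules were the closest pair, at 37.3-fold over the ring on average (log2 5.22 ± 1.62, SD, n = 8), from 3.23 in anti-PD1 section 1 to 7.85. Gzma with Prf1 followed at 15.8-fold and Gzma with Nkg7 at 12.6-fold. Gzmb with Ifng had the lowest mean of the 21 pairs, at 4.22-fold (log2 2.08 ± 1.51), within the spread of the next, Gzmc with Fasl (2.13 ± 0.80). Gzmb with Ifng was at 1.19 ± 0.58 without and 2.963 ± 1.70 with CpG-STAT3ASO on the log2 scale. With CpG-STAT3ASO 3 pairs with Gzmc (with Fasl, Nkg7 and Gzma, at 2.58, 2.59 and 2.91) were lower. Prf1 with Ifng (2.955) and Prf1 with Fasl (2.956) were lower as well, by a very small margin. Ifng lay closest to Nkg7 among the other 6, at 9.86-fold. Gzmc was at 9.73-fold with Gzmb and 8.45-fold with Gzma, but Gzmc with Gzma was at -1.04 in combination section 1, with 0 pairs within 100 pixels and 28 Gzmc molecules in all.

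Molecules of one gene also lay close to each other. Gzma was at 170-fold, from a log2 ratio of 4.46 in anti-PD1 section 1 to 12.2 in combination section 1. Gzmc was at 5.96 to 8.67 in the 4 sections without CpG-STAT3ASO. In CpG-STAT3ASO section 1 and combination section 1 Gzmc had only 2 and 0 pairs in the ring, so no mean fold is given for it. Ifng was at 46.0-fold, Gzmb at 42.2-fold, Prf1 at 13.6-fold, Nkg7 at 12.2-fold and Fasl at 7.44-fold. Several molecules of 1 cell raise this value, as does a gene made by few cells. By their means, Prf1, Nkg7 and Fasl were closer to Gzma than to themselves, by less than the SD over sections.

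**Figure D5:**
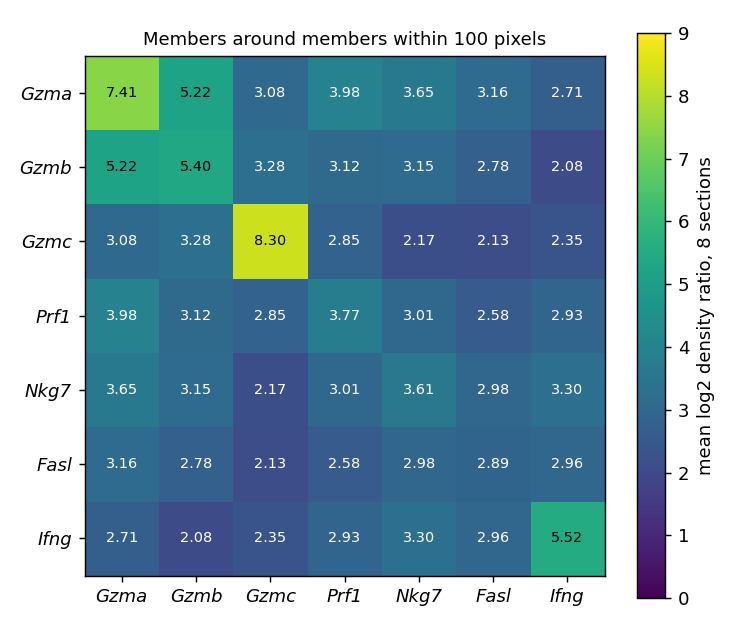
Mean log2 density ratio over 8 sections for each pair of effector genes, within 100 pixels over 400 to 600 pixels, with pairs of a gene with itself on the diagonal. Gzma with Gzmb is the brightest pair off the diagonal (5.22), Gzmb with Ifng the darkest (2.08); the Gzmc value on the diagonal rests in 2 sections on 2 and 0 ring pairs.

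Among panel genes outside the 7 that were above background in at least 6 sections (79 genes), those most alike in position are named for each, 3 for every gene but Gzmc. Klrd1, Klrc1 and Cd8a were the 3 for Gzma, Gzmb, Prf1, Nkg7 and Fasl. For Gzma they stood at 3.81, 3.79 and 3.60 on the log2 scale and for Fasl at 2.91, 2.95 and 2.95. Gzmc had Klrd1 (3.17) and Klrc1 (3.03) as its first 2, with Cd8a at 1.71. Ifng had Pdcd1 (3.17), Klrc1 (3.07) and Cd8a (2.77). The measure of likeness is the mean over 8 sections, and the median gene was at 0.43 to 0.63.

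Around markers of other cells the 7 genes did not run alike. Near Foxp3, the regulatory T cell factor, Gzmb was at 2.59 ± 1.24 (SD, n = 8) and 1.07 or more in each section, Nkg7 at 1.54 ± 0.53, Fasl at 1.38 ± 0.35, Ifng at 1.01 ± 0.76, Prf1 at 0.98 ± 0.28, Gzmc at 0.45 ± 1.02 and Gzma at -0.10 ± 2.02. Gzmb was thus denser around Foxp3 molecules than in the ring in 8 of 8 sections, as were Nkg7, Fasl, Ifng and Prf1. Gzmc ranged from -0.71 to 2.03 and Gzma from -3.65 to 1.54. Near Cd4, which myeloid cells can also carry, Ifng was highest at 1.84 ± 0.99 and Gzmc lowest at 0.25 ± 0.99. Klrb1c was above background in 4 sections and so was not ranked among the nearest genes. Near it Gzma was at 3.68 ± 1.44, Gzmc at 3.27 ± 2.71 and Prf1 at 2.89 ± 1.51. Gzmb was at 2.83 ± 1.33, Nkg7 at 2.61 ± 1.27, Fasl at 2.22 ± 0.79 and Ifng at 1.41 ± 1.91. Near Flt3, a gene of the dendritic cell list, Fasl was at 1.21 ± 0.45 and the other 6 between -0.03 and 0.38. Flt3 was lower in dense than in low bins by share (-4.42), whereas Itgax and Irf8 of that list were higher (2.12 and 1.36). Which cells carried Flt3 here was not tested. Near the macrophage marker Adgre1 the 7 were between 0.23 and 0.46 and near Tmem119 between 0.09 and 0.26, at or below the median gene of each. Ly6g, a neutrophil marker, was above background in 0 sections. These differences between genes are descriptions, since molecules of 1 section share its tissue and depth.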

How the data were processed

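Per the labels, single-molecule fluorescence in situ hybridization was run on 8 brain sections of tumour-bearing mice. The deposited tables of the authors list 1 called molecule a row with its x and y pixel, a plane value and its gene. How spots were called and the size of a pixel: not given in the sources used here. Per the submitters' processing notes Seurat 4.2.0 was used, in a role they leave unsaid. Molecules were tallied per section and per 360-pixel bin. The 7 genes were named beforehand as a set, and they, the lists and the tests were chosen with earlier results of these data known.

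CPM plus a pseudocount of 1, molecules per bin plus 0.01, and density ratios with 0.5 added to each count were fitted on the log2 scale with limma 3.58.1 (lmFit, eBayes with trend; R 4.3.3), over panel genes averaging 10 or more molecules, with Benjamini-Hochberg adjustment and a threshold of 0.05. At most 5000 anchor molecules a section were used. The whole-section fit of the CpG-STAT3ASO effect was checked on simulated counts. It recovered 25.7% of 2-fold, 63.6% of 4-fold and 90.7% of 8-fold changes, with 2.7 false calls a run on average. Most 2-fold changes would thus be missed. In these runs false calls also made up a larger part of all calls than the threshold of 0.05 implies. Neighbour counts used Python 3.11.15, numpy 2.4.6, pandas 2.3.3 and numba 0.67.0, and plots matplotlib 3.10.9. Precision is limited by 2 sections a treatment. All 7 genes are named, besides the 3 nearest panel genes of each (1 of them is not reported here); list genes given as examples were picked after their values were seen. The ratio to Cd8a, the CpG-STAT3ASO contrast near Mki67 and the promoter motifs were chosen after seeing the data. Alternatives were scalings, pseudocounts, filters, bin sizes, class limits, radii, rings, background subtraction, voom, a replicate block and each section left out. Replicate numbers did not pair the sections: correlations of their deviations between treatments ran from -0.525 to 0.589. Columns left unmapped numbered 0.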

Additional observations from a re-analysis of the deposited data

Results flagged for a closer look

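In 70 checks of 4 sections each, chance marks about 1 in 20. A section far from the other 3 of its side was found for Gzma in CpG-STAT3ASO section 2 (354.8 CPM), for Gzmc in PBS section 2 (333.7 CPM, and 135.5 molecules per 100 intermediate bins), and for Prf1 in PBS section 1 (log2 ratio of 0.4541 near Mki67). Nkg7 stood apart in low bins of PBS section 2 (55.26 molecules per 100 bins) and of combination section 2 (231.9). Ifng stood apart in combination section 2, at 401.7 CPM and at 37.61 molecules per 100 low bins. For Prf1 both anti-PD1 sections were below both PBS sections. Both combination sections were above both CpG-STAT3ASO sections, narrowly so for combination section 1 (169.9 against 167.7 CPM). The interaction, at 1.713 on the log2 scale, did not pass its test (limma, adjusted p = 0.955).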

How the results depend on the processing

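With 2 sections a treatment, 253 of the recomputed counts of passing effector genes were classed as unchanged, 13 as higher and 10 as lower. The unchanged class holds some moves by 1. Examples are the count for the CpG-STAT3ASO effect near Mki67, 6 to 7 with each section left out, and that per Cd8a molecule, 3 without PBS section 1. Of the recomputed gene values 925 kept direction and side of the threshold while 42 changed sign. The cause of each change below was not tested. The count rose from 0 to 1 on median-of-ratios scaling for CpG-STAT3ASO averaged over anti-PD1 and against PBS. On shares of molecules it went to 4 for dense against low bins, to 0 near Mki67 and to 3 for the CpG-STAT3ASO effect near Mki67, which was 4 within 200 pixels. The replicate block took the count per Cd8a molecule from 2 to 1 and changed no other count of the 7 genes it was run for, though the numbers pair no sections. With each section left out, counts ran from 0 to 1 for CpG-STAT3ASO averaged over anti-PD1, against PBS and for the combination against PBS, from 0 to 2 in low bins and from 0 to 6 per Cd8a molecule.

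Signs changed for the whole-section CpG-STAT3ASO effect per tissue bin (Gzma -1.304, Prf1 -1.24, Nkg7 -1.045, Fasl -0.5483), on median-of-ratios scaling (Gzma -0.6128, Prf1 -0.5803, Nkg7 -0.3287) and with background subtracted (Gzma -0.319, Prf1 -1.574). With a section left out this effect ran from -0.248 to 0.3807 for Gzma, -0.1786 to 0.3735 for Prf1, -0.181 to 0.8869 for Nkg7 and -1.024 to 0.2139 for Ifng. In low bins Gzmc was 0.1374 per bin and 0.0266 with class limits of 20 and 200, Gzmb -0.0634 and Fasl -0.0343 on median-of-ratios scaling and Gzmb -0.0256 with bins of 180 pixels, and Gzmc ran from -0.597 to 0.3653 with a section left out. In intermediate bins Nkg7 was -0.2824 and Fasl -0.2412 on median-of-ratios scaling, and Gzma 0.9225 with background subtracted and 0.4647 with limits of 20 and 200. With a section left out these ran from -1.099 to 0.4499 for Gzma, -0.4175 to 0.427 for Nkg7, -0.4083 to 0.4991 for Fasl and -0.9907 to 0.2433 for Ifng. Fasl was -0.3248 in dense against low bins by share. Over all genes, calls went from 43 to 24 with background subtracted for the CpG-STAT3ASO effect, and from 4 to 21 with bins of 180 pixels and to 27 with limits of 20 and 200 in intermediate bins.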
